A study of Mus musculus with 40 samples.

Results

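The genes described here are 43 genes of fatty acid uptake and oxidation together with known targets of the nuclear receptor PPARA. They were chosen by name out of the 28467 genes of the bulk table and the 32285 genes of the nucleus table. The rule uses no measured value, but the list was drawn up with earlier results of these data known. The list was sorted into 8 role groups that run from regulators through uptake, activation and mitochondrial entry to the oxidation steps and other PPARA targets. All members were matched by symbol.

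The samples are right kidneys of male C57BL/6 mice aged 8 to 12 weeks, taken after removal of the left kidney (unilateral nephrectomy, UNx) or after a sham operation in which no kidney was removed. Bulk RNA-seq of polyadenylated RNA covered 36 mice, 6 sham and 6 UNx for each of the times 24, 48 and 72 h, and every time had its own shams. Each library carries a mouse number of its own in the labels. Single-nucleus RNA-seq, which reads the RNA of sorted nuclei one by one, covered 2 sham and 2 UNx mice at 24 h. The labels give the strain alone and name no allele or drug.

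Fatty acids are the main fuel of the proximal tubule, the kidney segment that reabsorbs most of the filtrate. They are bound and taken up, activated to acyl-CoA, carried into mitochondria through carnitine, and shortened by beta-oxidation, while peroxisomes and cytochromes of the CYP4 family handle very long chains and omega-hydroxylation. PPARA, with the receptor RXR as partner and the coactivator PGC-1alpha (Ppargc1a), switches on many of these genes during fasting and lipid load.

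Bulk depth was between 14868494 and 24108587 estimated counts per library. Levels in bulk are CPM, estimated counts per 1e+06 counts of a library's size after TMM scaling, a correction for library composition. Libraries differed in a profile that the groups do not fully explain. The share of counts from mitochondrially encoded genes was 25.3% ± 1.07 in the 24 h shams (SD, n = 6) and 23.1% ± 1.15 in the 24 h UNx libraries, but 14.7% ± 0.58 and 14.5% ± 0.638 in the 48 h and 72 h shams. A profile score built from processed pseudogenes, set to 1 for the mean of the 24 h shams and 0 for the mean of the later shams, had a mean of 0.716 in the 24 h UNx libraries. At 48 h, UNx replicates 1 to 5 had scores of 0.63 to 0.713 and mitochondrial shares of 25.8% to 26.4%, close to the 24 h libraries, while replicate 6 had 0.000965 and 15.2%, close to the 48 h shams (14% to 15.5%). These 5 libraries stand apart from the other libraries of their labelled batch. Whether their samples or batch were mixed up was not tested, and each 48 h value that follows rests on them. The labels place the 24 h libraries in batch 1 and the later ones in batch 2, so time and batch cannot be told apart for levels. By the labels each UNx group shares a batch with its own shams. The profile of 48 h UNx replicates 1 to 5 differed from that of their shams, and whether this profile marks batch was not tested.

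Of the 43 genes, 42 passed the filter on low counts at each time. Fgf21, a PPARA-driven hormone of the fasted liver, did not, and its level lay between 0 and 0.107 CPM in the 36 libraries. At 24 h after UNx, 20 of the 42 members were called in edgeR (adjusted p under 0.05), 18 higher and 2 lower. The share of all 14104 genes called was 27.3%, of which 14.2% were higher and 13.1% lower. The members' median log2 fold change was 0.20, against 0.0054 over all genes, and 35 of 42 lay above 0, as did 50.8% of all genes. At an unadjusted p under 0.05 there were 26 members and 39.2% of all genes. For 10 members the 6 UNx libraries did not overlap the 6 shams, and 10.4% of all genes did so. Once the profile score was a covariate, 0 members were called at 24 h and 8 reached an unadjusted p under 0.05. Few of all genes were called in that fit either. The score was 0.959 to 1.04 in the 24 h shams and 0.672 to 0.884 after UNx, without overlap. That fit can therefore hardly tell UNx from the profile. Neither its loss of calls nor its values for single members, given further on, decide anything for them. The part of the profile in these changes was otherwise not tested. In bulk tissue, fewer cells of a type and less RNA per cell cannot be told apart.

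At 48 h, 11 of 42 members were called, 6 higher and 5 lower, while 32.9% of all 14280 genes were called, 16.9% higher and 16% lower. An unadjusted p under 0.05 was reached by 13 members and by 44.5% of all genes. The groups did not overlap for 1 member, Ppara, and for 11% of all genes. The members' median was 0.06, against -0.04 over all genes. With the profile score as a covariate 0 members and 0 of all genes were called, and 5 members had an unadjusted p below 0.05. The scores of UNx replicates 1 to 5 (0.63 to 0.713) lay above those of all 48 h shams (-0.0466 to 0.0651). That fit therefore leans on UNx replicate 6 and decides nothing for the members. A fit of UNx replicate 6 alone against the shams holds 1 UNx library and cannot show which members changed. Leaving out 1 library took the count of called members to 6 (sham replicate 5 or UNx replicate 1) or 7 (sham replicate 6, UNx replicate 4 or 5), and to 13 without UNx replicate 6.

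At 72 h, 0 members were called in edgeR, against 1.71% of all 14556 genes, and the groups overlapped for all 42 members while 2.05% of all genes did not overlap. An unadjusted p below 0.05 was found for 7 members and 17.3% of all genes. The DESeq2 Wald test called 3 members, all lower, namely Ppara, Slc22a5 and Cpt1a. Leaving out UNx replicate 6 gave 3 calls, all higher, namely Cd36, Pex11a and Acot12. Leaving out sham replicate 1 or UNx replicate 2 gave a call of Ppara, and leaving out sham replicate 5 a call of Slc22a5, all lower. Over the 3 times 26 of 42 members were called at least once, while 50.5% of the 13874 genes tested at each time were. The 16 never called included Ehhadh, Cyp4b1 and Cd36, whose values in nuclei follow further on. Calls at both 24 h and 48 h were made for 5 members and for 10.6% of the 13903 genes tested at both. Cpt2 and Pex11a were higher at both times, and 3.95% of genes had 2 calls in the same direction. Slc22a5, Fabp3 and Hadhb changed direction, as did 6.67% of genes.

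**Figure D1:**
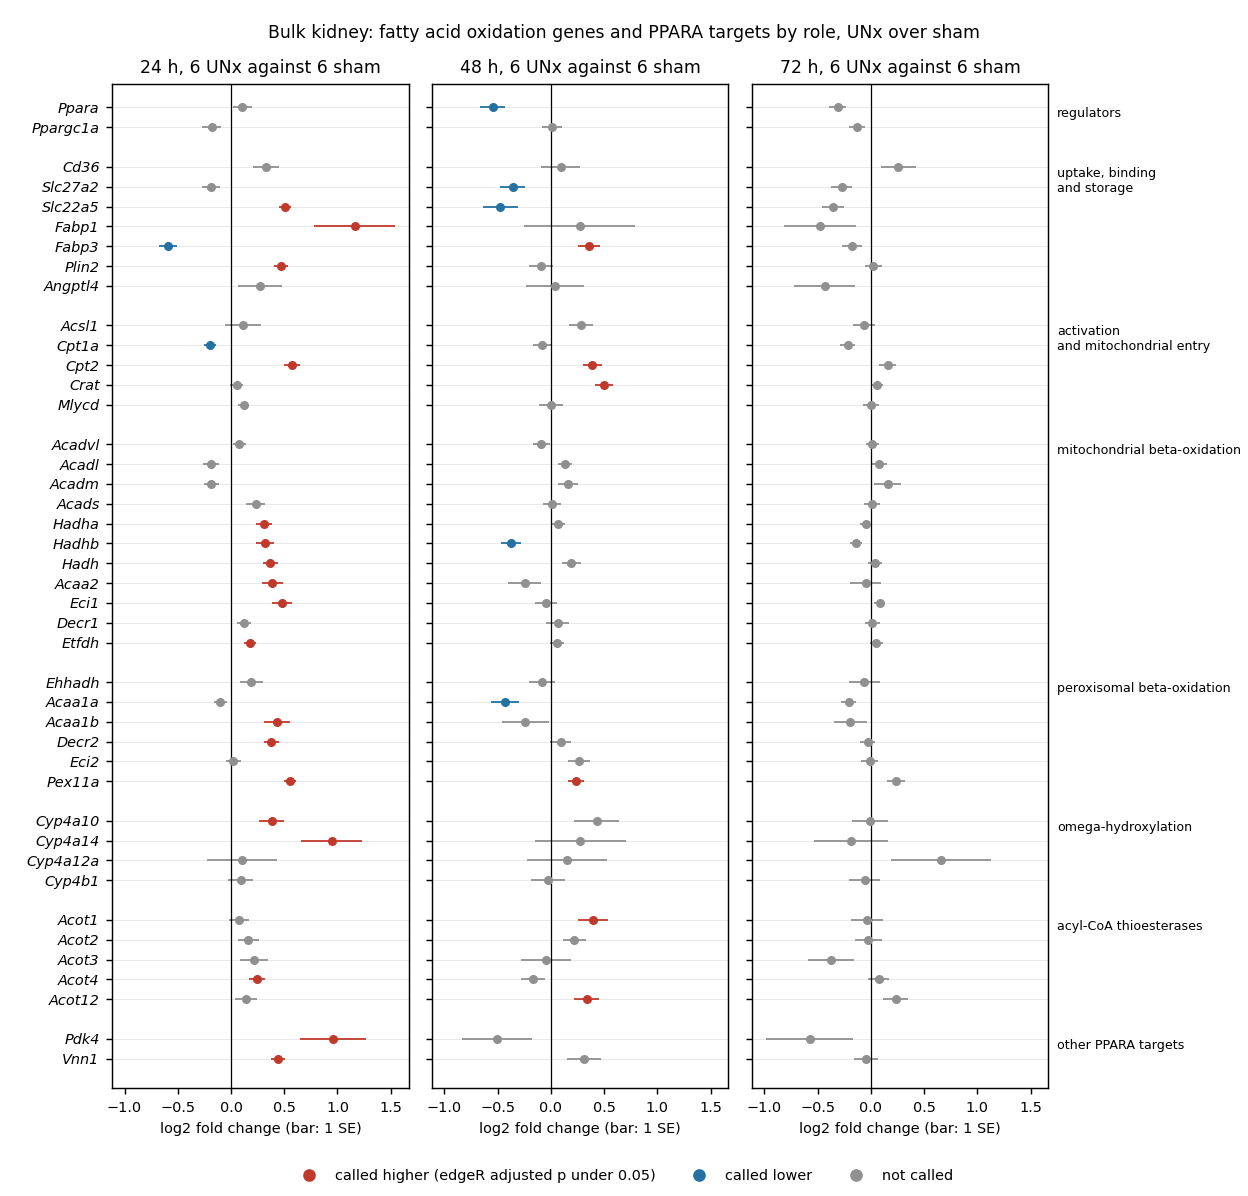
Log2 fold change of UNx over sham (horizontal axis, bars of 1 SE, 6 against 6 libraries) for the 42 tested members in order of role, in 1 panel per time. Red marks the 18 members called higher at 24 h and the 6 at 48 h, blue the 2 and 5 called lower, and grey those not called, which are all 42 at 72 h.

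Among the regulators, neither gene was called at 24 h. Ppara, the receptor itself, lay at 26.1, 31 and 38.6 CPM (lowest, median and highest) in the 24 h shams and at 29.7, 34.8 and 38.5 in the UNx libraries. At 48 h it lay at 41.1, 44.5 and 60.7 CPM in the shams and at 27.5, 32.2 and 38.8 after UNx. Every UNx library was below every sham, with replicate 6 the highest of the 6. Ppara fell by 0.55 on the log2 scale (SE 0.119, edgeR adjusted p = 0.00401), a fall that was 0.26 and no longer called with the profile score as a covariate (adjusted p = 0.555). At 72 h the 6 UNx libraries lay between 42.5 and 54.4 CPM and the shams between 50.4 and 64.9, so the groups overlapped but each UNx library was below the sham mean (log2 fold change -0.31, SE 0.0776, adjusted p = 0.0614). The 48 h effect was more negative than the 24 h effect by 0.63 (SE 0.148, adjusted p = 0.00111). Ppargc1a, which encodes the coactivator PGC-1alpha, had log2 fold changes of -0.18, 0.01 and -0.13 at the 3 times and was not called.

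The genes of uptake, binding and storage were split. At 24 h 3 of 7 were called higher and 1 lower, beside 14.2% and 13.1% of all genes. Slc22a5, the carnitine transporter OCTN2, lay at 95.8, 106 and 110 CPM in the 24 h shams and at 134, 149 and 156 after UNx, without overlap. It rose by 0.51 (SE 0.0536, adjusted p = 5.1e-05). At 48 h the shams lay at 191, 243 and 330 CPM and the UNx libraries at 150, 162 and 262. UNx replicates 1 to 5 were at 150 to 183 CPM and replicate 6 alone, at 262, was above the sham mean. The log2 fold change was -0.48 (SE 0.165, adjusted p = 0.039). It changed sign to 0.15 with the profile score as a covariate and to 0.083 with replicate 6 as the only UNx library. The call was kept in 4 of the 12 fits without 1 library. At 72 h all 6 UNx libraries were below the sham mean, at 189 to 250 against 218 to 333 CPM, and the log2 fold change was -0.35 (SE 0.103, adjusted p = 0.097). The effect at 72 h was more negative than at 24 h by 0.84 (SE 0.178, adjusted p = 0.00633). The 24 h shams stood below all later shams for this gene, a difference in which time and batch cannot be told apart.

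Fabp3, a cytosolic fatty acid binding protein best known from heart muscle, moved the other way. It lay at 125, 138 and 159 CPM in the 24 h shams and at 78.6, 93.4 and 112 after UNx, without overlap, and fell by 0.59 (SE 0.0843, adjusted p = 0.000294). At 48 h the shams were at 45.3, 63.1 and 67.2 CPM and the UNx libraries at 64.2, 82.5 and 87.4. It rose by 0.36 (SE 0.104, adjusted p = 0.0175), with replicate 6 the lowest UNx library and within the sham range. At 72 h it did not pass the test (log2 fold change -0.18, adjusted p = 0.357). With the profile score as a covariate the values were -0.11 (24 h) and 0.11 (48 h), neither called.

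Plin2, which coats lipid droplets, rose at 24 h by 0.47 (SE 0.0652, adjusted p = 0.00023) from a sham range of 44.6 to 47.9 CPM to 56.2 to 72.8 CPM. Slc27a2, the acyl-CoA synthetase and transporter FATP2, lay at 2731 to 3085 CPM in the 24 h shams. It fell at 48 h by 0.36 (SE 0.116, adjusted p = 0.0292), a call kept in 5 of the 12 fits without 1 library, and its log2 fold changes at 24 h and 72 h were -0.19 and -0.27 without a call. All 6 UNx libraries were below the sham mean at each of the 3 times. Cd36, a fatty acid translocase, had log2 fold changes of 0.33, 0.09 and 0.26 (adjusted p = 0.0567, 0.715 and 0.446), and Angptl4, an inhibitor of lipoprotein lipase, was called at no time.

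Fabp1, the liver-type fatty acid binding protein and a classical PPARA target, was near the lower limit of detection. Its level was 0.405 to 0.823 CPM in the 24 h shams and 0.503 to 2.68 after UNx, where replicates 1, 4, 5 and 6 stood above all shams and replicates 2 and 3 did not. The log2 fold change was 1.16 (SE 0.38, adjusted p = 0.0334), and the call was lost in 6 of the 12 fits that left out 1 library. PPARA and RXR bind a direct repeat of a short unit with 1 base between the repeats. The pattern AGGNCANAGGNCA was searched on both strands in RefSeq promoter windows of GRCm38.p6, which run from 250 bases before to 50 bases after a gene's start. A window was found for 35 of the 43 genes, 37 windows in all. The pattern was in 1 of these 37 windows, that of Fabp1, and in 0.381% of all 32851 windows. The stretch around it is shown because it is the only match among the members. It lies at chr6:71199752-71199826 on the plus strand, with the match in capitals, which reads as the pattern on the opposite strand.
Fabp1: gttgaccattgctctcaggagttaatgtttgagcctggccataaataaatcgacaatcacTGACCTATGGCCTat
The match begins 67 bases before the RefSeq start that the window is built on, at 71199879, and 15 bases before the start in the GENCODE M21 annotation, at 71199827. It is a match of letters in this window, not a measured binding site.

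In the group of activation and mitochondrial entry, Cpt2 rose and Cpt1a fell at 24 h. Cpt2, the inner-membrane carnitine palmitoyltransferase, lay at 82.6, 91.9 and 108 CPM in the shams and at 126, 134 and 155 after UNx, without overlap (log2 fold change 0.57, SE 0.074, adjusted p = 0.000155). At 48 h it lay at 119, 130 and 158 CPM in the shams and at 154, 172 and 203 after UNx, with replicate 6 at 173, in the middle of its group (0.39, SE 0.086, adjusted p = 0.0044). Its call survived each of the 12 left-out libraries at both times. Cpt2 was 1 of 8 members called at 24 h when all 36 libraries were fitted with the profile score (0.55, adjusted p = 0.00133). Within the 24 h libraries alone the value with the score was 0.30 (SE 0.179, adjusted p = 0.706).

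Cpt1a, the outer-membrane enzyme that sets the rate of entry, fell at 24 h by 0.19 (SE 0.0566, adjusted p = 0.0198), with all 6 UNx libraries below the sham mean, and its log2 fold changes were -0.08 and -0.22 at 48 h and 72 h. Crat, carnitine acetyltransferase, was called at 48 h alone (0.50, SE 0.0826, adjusted p = 0.000887). Its UNx replicates 1 to 5 were at 220 to 245 CPM there, and replicate 6 at 176 lay within the sham range of 142 to 178. Its effect at 48 h differed from that at 24 h by 0.47 (adjusted p = 0.000263) and from that at 72 h by 0.45 (adjusted p = 0.00226). Acsl1, a long-chain acyl-CoA synthetase, and Mlycd, malonyl-CoA decarboxylase, were called at no time.

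In mitochondrial beta-oxidation, the role group with the most members, 6 of 11 were called at 24 h (54.5%, beside 27.3% of all genes), all higher. These were Hadha and Hadhb, the subunits of the trifunctional protein, Hadh, the short-chain hydroxyacyl-CoA dehydrogenase, Acaa2, a thiolase, Eci1, an enoyl-CoA isomerase, and Etfdh, which passes electrons to ubiquinone. Their log2 fold changes ran from 0.18 (Etfdh) to 0.48 (Eci1). Hadh lay at 266, 299 and 343 CPM in the shams and at 342, 399 and 417 after UNx, with the lowest UNx library just inside the sham range (0.37, SE 0.0667, adjusted p = 0.0012). The acyl-CoA dehydrogenases that open each cycle were not called. Acadl and Acadm, for long and medium chains, had log2 fold changes of -0.19 and -0.18 with all 6 UNx libraries below the sham mean, Acadvl 0.08 and Acads 0.23.

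At 48 h Hadhb was the only member of this group that passed the test. It fell by 0.37 (SE 0.0921, adjusted p = 0.00767), with UNx replicates 1 to 5 at 151 to 174 CPM, replicate 6 at 217 and the shams at 197 to 245. The value for its partner subunit Hadha was 0.07 (adjusted p = 0.391). The effects at 72 h were more negative than those at 24 h for Hadha by 0.34 (adjusted p = 0.022) and for Hadhb by 0.43 (adjusted p = 0.0277). Hadh was at 400, 469 and 490 CPM in the 72 h shams and at 409, 477 and 498 in the UNx libraries, which were not told apart (0.04, adjusted p = 0.833).

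Among the peroxisomal genes 3 of 6 were called higher at 24 h, namely Pex11a, Decr2 and Acaa1b, beside 14.2% of all genes. Pex11a, a membrane protein of peroxisome division and a PPARA target, had the lowest p of all members. It lay at 28.2, 31.5 and 36.1 CPM in the shams and at 44.8, 46.1 and 48.8 after UNx, a narrow group with no overlap (0.55, SE 0.0571, adjusted p = 4.43e-05). With the profile score as a covariate its log2 fold change was 0.56 (SE 0.15, unadjusted p = 0.0022), with an adjusted p = 0.154. That fit can hardly tell UNx from the profile, so its value decides nothing for Pex11a. With all 36 libraries and the score Pex11a had a log2 fold change of 0.48 (adjusted p = 0.0013). At 48 h it lay at 40.2, 43.6 and 52.2 CPM in the shams and at 47.7, 52.7 and 59.5 after UNx (0.24, SE 0.0762, adjusted p = 0.0275), and replicate 6 was the highest library. That call was kept in 6 of the 12 fits without 1 library. At 72 h its log2 fold change was 0.23 (SE 0.0843, adjusted p = 0.176), with 5 of 6 UNx libraries above the sham mean.

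Acaa1a and Acaa1b, the peroxisomal thiolases, are near-identical copies whose reads the counting could split, so their values are uncertain. Acaa1b rose at 24 h by 0.43 (adjusted p = 0.0149). Acaa1a fell at 48 h by 0.43 (adjusted p = 0.0218), with replicate 6 at 103 and replicates 1 to 5 at 61.5 to 70.6 CPM. The profile score as a covariate gave a log2 fold change of 0.12 there. Ehhadh, the bifunctional enzyme of the peroxisomal pathway, lay at 511, 629 and 740 CPM in the 24 h shams and at 604, 685 and 885 after UNx (0.19, SE 0.106, adjusted p = 0.197). At 48 h and 72 h its log2 fold changes were -0.08 and -0.06.

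Of the 4 CYP4 genes of omega-hydroxylation, 2 were called higher at 24 h, beside 14.2% of all genes. Both are CYP4A genes, close relatives within a gene family that may share reads. Cyp4a14 lay at 84.9, 115 and 190 CPM in the shams and at 119, 197 and 466 after UNx. The groups overlapped, and 1 library, UNx replicate 4, stood at 466 (0.94, SE 0.287, adjusted p = 0.0235). Without that library the value was 0.63 (adjusted p = 0.0512), and the call was lost. Cyp4a10 rose by 0.38 (SE 0.118, adjusted p = 0.0259), and 7 of 12 fits without 1 library kept its call. Cyp4a12a and Cyp4b1 had log2 fold changes of 0.10 and 0.09.

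The acyl-CoA thioesterases release free fatty acid from acyl-CoA. At 24 h 1 of 5 was called and at 48 h 2 of 5, beside 27.3% and 32.9% of all genes. Acot4 rose at 24 h, at 49.9, 55.6 and 64.7 CPM in the shams and 59.6, 64.9 and 73.4 after UNx (0.24, SE 0.0727, adjusted p = 0.0215). At 48 h Acot4 was at 63.3, 86.6 and 94.6 CPM in the shams and at 63.3, 71.1 and 98.7 after UNx, where replicate 6 again stood apart from replicates 1 to 5 (-0.17, adjusted p = 0.273). Acot1 and Acot12 rose at 48 h by 0.39 and 0.34 (adjusted p = 0.0472 and 0.0405), and both calls were kept in 4 of the 12 fits without 1 library. Acot1, Acot2, Acot3 and Acot4 are neighbouring copies of 1 ancestral gene, so reads could be split between them.

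Of the other PPARA targets, Pdk4, the kinase that shuts pyruvate out of the mitochondrion, lay at 9.94, 11.6 and 14.6 CPM in the 24 h shams and at 12.9, 17 and 57.8 after UNx. UNx replicate 4 stood at 57.8 and the others at 12.9 to 22.5 CPM (0.96, SE 0.312, adjusted p = 0.0327). The call was lost without any 1 of sham replicates 2 to 6. Without UNx replicate 4 the log2 fold change was 0.47 (SE 0.136, adjusted p = 0.0222). Vnn1, the pantetheinase vanin-1, lay at 86.7, 97.3 and 105 CPM in the shams and at 123, 129 and 154 after UNx, with no overlap and replicate 4 again the highest (0.44, SE 0.065, adjusted p = 0.000363). Neither gene was called later. Pdk4 at 72 h ranged from 22 to 135 CPM in the shams and from 21.1 to 56 after UNx (-0.58, SE 0.413, adjusted p = 0.514).

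The same 24 h library, UNx replicate 4, had a summed level of 909 CPM over 6 adipocyte markers (Adipoq, Plin1, Lep, Retn, Cfd and Fabp4), where the other 11 libraries of that time lay between 18.1 and 35.5 CPM. It was also the highest UNx library for Acsl1, at 401 CPM. Of the members called higher at 24 h, it was the highest UNx library for Plin2, Cpt2, Cyp4a14, Pdk4, Vnn1, Acaa1b and Decr2. So it was for the mitochondrial genes Hadha, Hadhb, Acaa2, Eci1 and Etfdh. Another UNx library was highest for Slc22a5, Fabp1, Hadh, Pex11a, Cyp4a10 and Acot4. The part of adipocytes in the values of these members was not tested. Leaving out UNx replicate 4 gave 16 called members at 24 h, and Slc22a5, Plin2, Pex11a, Vnn1 and Pdk4 stayed among them. The summed level of 8 proximal tubule markers was 9492 to 11630 CPM in the 24 h shams and 9862 to 10990 after UNx, with 1 of 8 called, Slc22a6 (0.29, adjusted p = 0.0264).

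Markers of other cell types moved in the same fits. At 24 h 1 of 4 connecting tubule and principal cell markers was higher (Calb1, 0.67), as were 2 of 5 red blood cell markers and 1 of 4 fibroblast markers (Col1a2, 0.70). Lower were 2 of 4 intercalated cell markers, 1 of 4 S3 segment markers (Slc22a7, -0.43) and 1 of 4 podocyte markers (Podxl, -0.21). In the intercalated and in the S3 list 2 of 4 markers lay above 0, and the S3 values ran from -0.43 to 0.48. Of 4 thick ascending limb markers 1 was higher and 1 lower. The 1 adipocyte marker tested, Fabp4, was higher (1.97). Of all genes 14.2% were called higher and 13.1% lower at 24 h. At 48 h 3 of 8 proximal tubule markers were higher and 1 lower, with sums of 9241 to 11342 CPM in the shams and 10242 to 13287 after UNx. At that time 2 of 4 fibroblast markers (Pdgfra and Dcn) and 2 of 5 red blood cell markers were lower. So were 1 of 4 intercalated cell markers (Slc26a4, -0.60) and 1 of 3 distal convoluted tubule markers (Trpm6, -0.42). Higher were 1 of 4 thick ascending limb markers (Cldn10, 0.54) and 1 of 4 podocyte markers (Wt1, 0.39). Of all genes 16.9% were called higher and 16% lower at 48 h. At 72 h 0 of 8 proximal tubule markers were called, with sums of 9802 to 13519 and 11060 to 12906 CPM. The part of these cell types in the members' values was not tested.

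**Figure D2:**
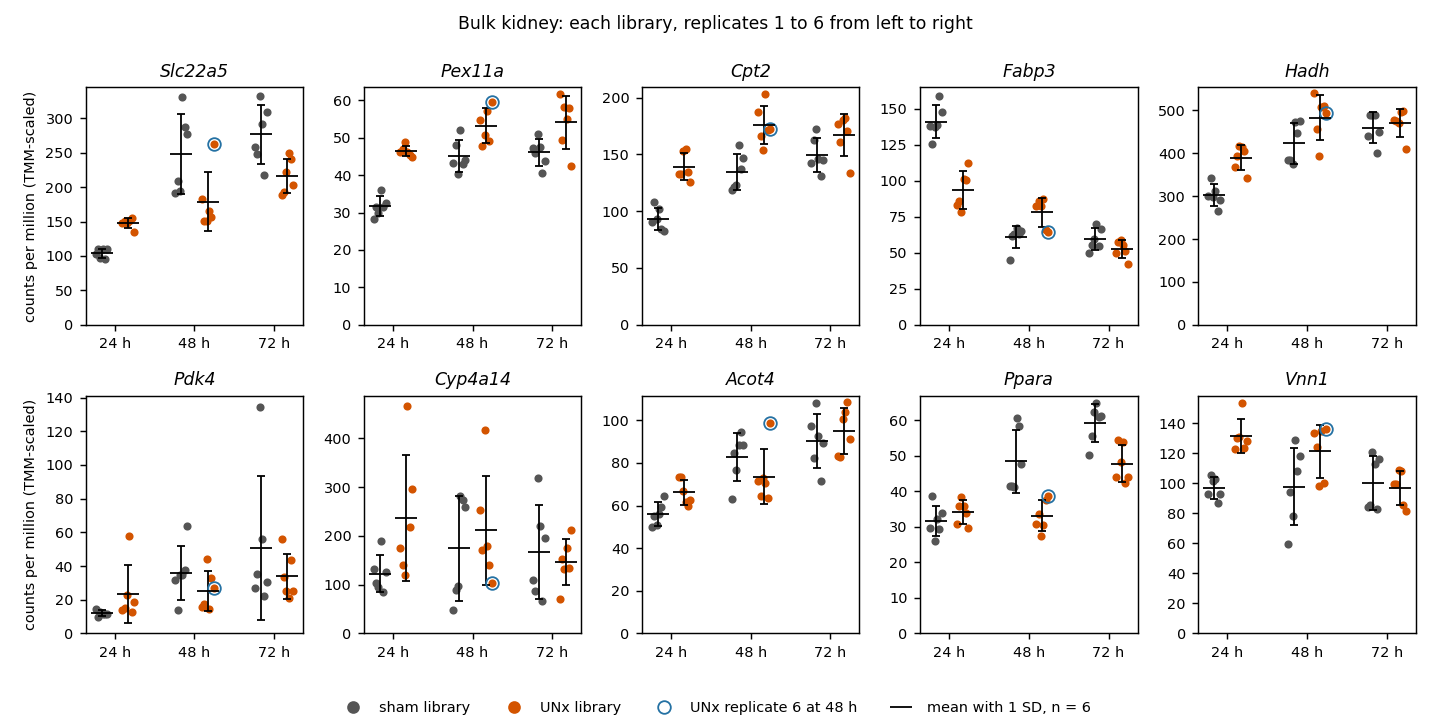
Level of 10 members in each of the 36 bulk libraries (vertical axis in CPM, starting at 0; grey sham, orange UNx; bars are the mean with 1 SD, n = 6). Slc22a5, Pex11a, Cpt2, Fabp3 and Vnn1 separate at 24 h, and the ringed replicate 6 of the 48 h UNx group stands apart from replicates 1 to 5 for Slc22a5 (262 CPM) and Acot4 (98.7 CPM).

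The effects themselves differed between times for part of the list, tested as differences of the UNx effects over all 36 libraries. From 24 h to 48 h they differed for 13 of 42 members, 4 more positive and 9 more negative, while 37% of all 15093 genes differed, 19.3% more positive and 17.7% more negative. The largest shifts were those of Pdk4 (-1.43, SE 0.567, adjusted p = 0.0451), Fabp3 (0.98, SE 0.144) and Slc22a5 (-0.95, SE 0.179, adjusted p = 8.43e-05). From 48 h to 72 h they differed for 2 members, Fabp3 and Crat, against 14.6% of genes. From 24 h to 72 h they differed for 3 members, Slc22a5, Hadha and Hadhb, against 4.15%. With the profile score as a covariate 0 members differed in each of the 3 comparisons, with 1, 1 and 7 members at an unadjusted p under 0.05.

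Genes of the same pathways outside the list were read from the same fits, in which 27.3%, 32.9% and 1.71% of all genes were called at the 3 times. Of 31 tested further genes of fatty acid oxidation, 10 were called higher and 2 lower at 24 h (38.7% in all), 5 and 4 at 48 h (29%), and 0 of 32 at 72 h, where the unadjusted p was below 0.05 for 4. The lowest p at 24 h belonged to Slc25a20, the carnitine-acylcarnitine carrier between Cpt1a and Cpt2 (0.64, SE 0.0616, adjusted p = 2.18e-05). It was Hsd17b10, a mitochondrial hydroxyacyl-CoA dehydrogenase, at 48 h (0.35, SE 0.087, adjusted p = 0.00817), and Slc27a1, a fatty acid transporter, at 72 h (-0.27, adjusted p = 0.0672).

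Of 5 ketone body genes 2 rose and 1 fell at 24 h. Oxct1, which uses ketone bodies, fell by 0.39 (SE 0.0537, adjusted p = 0.000246). At 48 h Acat1 rose by 0.23 (adjusted p = 0.0351) and at 72 h none of the 5 was called.

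Among 19 tested nuclear receptors and cofactors 1 rose and 4 fell at 24 h (26.3%, near the share of all genes). At 48 h 2 rose and 2 fell (21.1%, below that share). Ppard, the sister receptor of Ppara, rose by 0.97 (SE 0.226, adjusted p = 0.00588) and was at 1.08 without a call 24 h later (SE 0.275, adjusted p = 0.0645). Of further PPARA targets 4 of 15 were called higher and 1 lower at 24 h, 8 of 18 higher and 1 lower at 48 h, and 1 of 17 higher at 72 h. Of all genes 14.2% were called higher and 13.1% lower at 24 h, and 16.9% and 16% at 48 h. The log2 fold change lay above 0 for 10 of 15 targets at 24 h (median 0.19). It did so for 8 of 18 at 48 h (median -0.096, lowest -1.87) and 6 of 17 at 72 h (median -0.10). Slc16a1, a transporter of lactate and ketone bodies, rose by 1.02 at 24 h (SE 0.134, adjusted p = 0.00018) and by 1.02 at 72 h (SE 0.215, adjusted p = 0.0312), and Pdk2 had the lowest p at 48 h (0.74, adjusted p = 0.000964).

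The nucleus table held 16500 nuclei in 30 classes of the deposited annotation, of which 23 had at least 10 nuclei in every mouse. Of 16482 distinct barcodes 18 (0.109%) occurred in more than 1 library. The proximal tubule classes PTS1, PTS2 and PTS3 held between 211 and 959 nuclei per mouse. By summed proximal tubule markers PTS1, PTS2 and PTS3 were at places 1, 2 and 4 of the 23 classes, and the S3 segment markers (Slc7a13, Cyp7b1, Slc5a1 and Slc22a7) were highest in PTS3. Since classes were drawn from the expression of all genes, levels by class are a description.

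Of the 43 members, 39 reached a mean of 10 CPM, here without TMM scaling, in their highest class, and for 15 of them that class was a proximal tubule class (2 in PTS1, 5 in PTS2 and 8 in PTS3). By the mean of the 4 mice, each of the 3 proximal tubule classes stood above every other class for 7 members, Ppara, Slc27a2, Decr1, Ehhadh, Acaa1b, Acot4 and Acot12. Taken mouse by mouse this order held in all 4 mice for 0 of the 7, in 3 mice for Ppara and Acot12, in 2 for Slc27a2 and Acaa1b, and in 1 for Ehhadh (sham mouse 1), Decr1 and Acot4. Ppara had means of 572, 485 and 274 CPM in PTS1, PTS2 and PTS3 and a median of 91 over the 20 other classes. Slc27a2 ran the other way, at 714, 1820 and 2367, against 345. Slc22a5 was at 348, 323 and 125, and Acot12, a cytosolic acetyl-CoA thioesterase, at 141, 345 and 341, against a median of 40.5.

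The other 24 members were highest elsewhere, 5 in MTAL, 5 in MD, 4 in DTL2, 3 in Per, 2 each in DTL1 and PEC, and 1 each in CTAL1, CTAL2 and ICB. Several of these classes are small, such as MD with 10 to 16 and DTL2 with 11 to 50 nuclei per mouse. Means in such classes rest on few nuclei. In the thick ascending limb class MTAL were the highest means of Ppargc1a (1351 CPM), Acsl1 (375), Hadha (177), Hadhb (122) and Pdk4 (31.5). Both trifunctional subunits were lower in PTS1, PTS2 and PTS3 than in the median other class, Hadha at 72.6, 72.9 and 73.1 against 117. Acot3 was at 87.5 in the intercalated class ICB and at 3.87 to 6.12 in the proximal tubule classes. A nucleus library holds nuclear RNA, so these means are not levels of RNA in whole cells. Slc27a2 also differed by batch outside the proximal tubule. Its median over the 20 other classes was 110 and 140 CPM in the sham and UNx mouse of batch 3 and 556 and 702 CPM in those of batch 4, and the part of free RNA in these values was not tested.

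**Figure D3:**
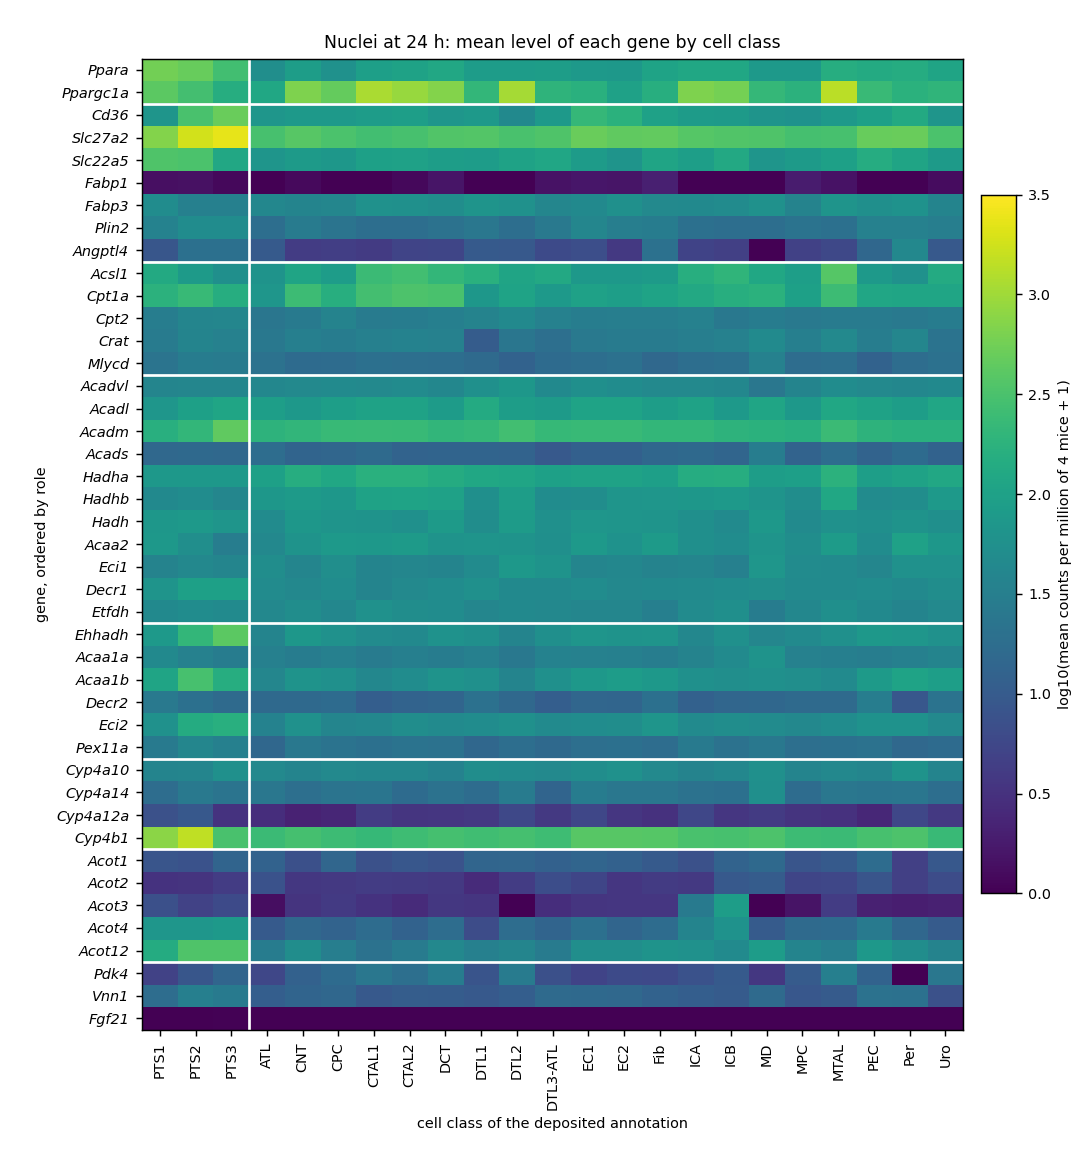
Mean level of the 43 members (rows, ordered by role, white lines between roles) in 23 cell classes (columns, the 3 proximal tubule classes at the left), coloured by log10 of CPM + 1, mean of 4 mice. Ppara, Slc27a2, Ehhadh, Acaa1b and Acot12 are brightest at the left, and Ppargc1a is brightest in the thick ascending limb class MTAL.

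UNx was then compared with sham within each class, with counts summed per mouse and the mouse as replicate. In edgeR without a block 0 genes were called in PTS1, PTS2 and PTS3, and an unadjusted p below 0.05 was found for 1.22%, 2.35% and 1.69% of genes and for 2, 3 and 1 of the 41 tested members. Fabp1 and Fgf21 did not pass the filter. The labels put mouse 1 of each group in batch 3 and mouse 2 in batch 4, and the values of the same batch moved together (correlation over genes 0.844, 0.832 and 0.857). With the replicate block, which takes up this batch, 1.63%, 3.03% and 2.47% of genes were called, and 3, 2 and 3 of the 41 members. The members split into 2, 1 and 2 higher, beside 0.65%, 1.22% and 0.85% of genes, and 1, 1 and 1 lower, beside 0.978%, 1.81% and 1.62%. Values by mouse are TMM-scaled CPM. The DESeq2 Wald test without the block called 0, 2 and 1 members.

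Ehhadh was lower after UNx in all 3 classes, called with the block. In PTS3 it stood at 854 and 656 CPM in the sham mice and at 57.6 and 83.6 in the UNx mice (log2 fold change -3.42, SE 0.322, unadjusted p = 0.00036). With the block the value was -3.43 (SE 0.225, edgeR adjusted p = 4.29e-05), and the UNx mouse held 0.0674 of the sham level in batch 3 and 0.127 in batch 4. In PTS2 it stood at 398 and 304 in the sham mice and at 51 and 73.7 after UNx (-2.50, with the block -2.51 and adjusted p = 0.000125).

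In PTS1, where its sham level was lowest, Ehhadh was at 99.3 and 116 in the sham mice and at 27.8 and 62.4 after UNx (-1.26, with the block -1.37 and adjusted p = 0.0177). Sham and UNx mice did not overlap in any of the 3 classes. The DESeq2 Wald test called Ehhadh in PTS2 and PTS3 (adjusted p = 9.01e-08 and 4.85e-13). Leaving out each mouse in turn gave values between -3.70 and -3.18 in PTS3 and between -1.93 (without UNx mouse 2) and -0.79 (without UNx mouse 1) in PTS1, and whether the effects of the 3 classes differ was not tested.

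The gene spans chr16:21761287-21787807 (mm10) on the minus strand. In the 20 other classes its median was 23.2 and 103 CPM in the sham mice and 26.6 and 77.6 in the UNx mice, with the second mouse of each group higher. The UNx levels of PTS1, PTS2 and PTS3 lay within the range of the other classes of the same mouse. In PTS1 the level of sham mouse 2 also lay within the range of its other classes (57.3 to 169 CPM). That of sham mouse 1 lay above its other classes (11.1 to 45.6 CPM). In bulk RNA of the same time, from other mice, Ehhadh did not pass the test (0.19, SE 0.106, adjusted p = 0.197).

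Cd36 was higher after UNx. In PTS2 it stood at 170 and 133 CPM in the sham mice and at 489 and 444 in the UNx mice (1.62, with the block 1.63, SE 0.153, adjusted p = 0.000211), and the groups did not overlap. In PTS3 it stood at 466 and 291, and at 751 and 515 after UNx (0.74, with the block 0.76, SE 0.15, adjusted p = 0.0256). PTS1 had lower counts, 8.05 and 52.3 in the sham mice and 38.4 and 169 after UNx (1.78, with the block 1.93, SE 0.165, adjusted p = 0.0014), where both mice of batch 4 were the higher of their group and the groups overlapped.

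The deposited annotation has an adipocyte class with 5 and 2 nuclei in the sham mice, 6 in UNx mouse 1 and 55 in UNx mouse 2, and adipocytes also express Cd36. The adipocyte markers summed to 156 to 161 CPM in the proximal tubule classes of UNx mouse 2 and to 7.02 to 38.9 in the other mice. In the 20 other classes the median of Cd36 was 13 and 65.6 in the sham mice, 37.4 in UNx mouse 1 and 208 in UNx mouse 2. Within batch 3, without UNx mouse 2, the UNx level of Cd36 was 4.77, 2.87 and 1.61 times the sham level in PTS1, PTS2 and PTS3. Within batch 4 it was 3.23, 3.33 and 1.77 times. Without UNx mouse 2 and without a block the log2 fold changes of Cd36 were 0.36, 1.73 and 1.01 in the 3 classes, all higher after UNx.

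Cyp4b1, a CYP4 enzyme of omega-hydroxylation, was also higher. In PTS1 it stood at 445 and 585 in the sham mice and at 936 and 1166 after UNx (1.03, with the block 1.03, SE 0.139, adjusted p = 0.0111). In PTS3 it stood at 56.1 and 378, and at 145 and 660 after UNx, so that the mice of a batch were closer than those of a group (0.89, with the block 1.08, SE 0.173, adjusted p = 0.00903). In PTS2, where its level was highest, it stood at 1140 and 1365, and at 1547 and 1892 after UNx, and was not called (0.46, with the block adjusted p = 0.206). Its median in the other classes was 44.9 and 405 in the sham mice and 76.7 and 700 after UNx, so its levels in PTS3 lay within the range of those classes. In bulk at 24 h its log2 fold change was 0.09 (SE 0.117, adjusted p = 0.594).

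**Figure D4:**
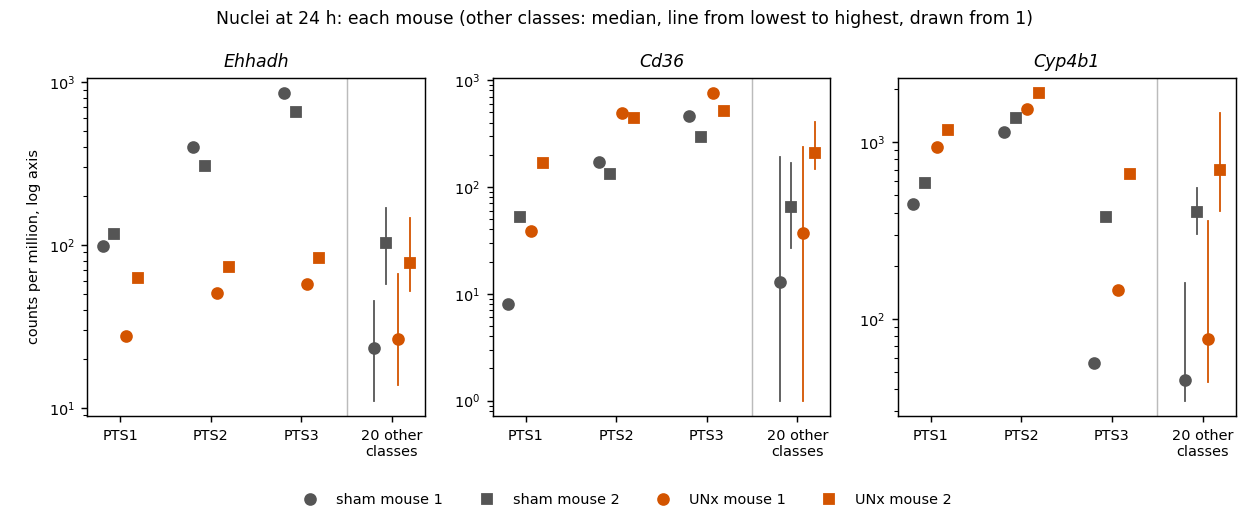
Level of Ehhadh, Cd36 and Cyp4b1 (CPM, log axis) in each of the 4 mice in PTS1, PTS2 and PTS3, with the median and the range over 20 other classes at the right (circles batch 3, squares batch 4; grey sham, orange UNx). Ehhadh falls from 854 and 656 to 57.6 and 83.6 in PTS3, Cd36 rises from 170 and 133 to 489 and 444 in PTS2, and the squares lie above the circles in the other classes.

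No other member was called in the proximal tubule classes under any of the fits run. Slc22a5, higher in bulk at 24 h, was at 395 and 390 in the sham mice and at 290 and 221 after UNx in PTS2, with no overlap (-0.62, unadjusted p = 0.0404, with the block adjusted p = 0.0582). In PTS1 it was at 442 and 326 and at 364 and 261 (-0.30), and in PTS3 at 121 and 168 and at 98.4 and 113 (-0.45). Acadm, the medium-chain dehydrogenase, was at 699 and 414 in the sham mice of PTS3 and at 309 and 336 after UNx (-0.79, with the block adjusted p = 0.102). In PTS1 and PTS2 its log2 fold changes were 0.41 and 0.07.

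Plin2 was at 43.1 and 38.2 in the sham mice of PTS3 and at 65.1 and 49.8 after UNx (0.50, with the block adjusted p = 0.165). Acot12 was at 120 and 131 and at 159 and 155 in PTS1 (0.32, with the block adjusted p = 0.277), and Acsl1 at 160 and 136 and at 114 and 126 (-0.30, with the block adjusted p = 0.391). Ppara was at 603 and 455 in the sham mice and 848 and 393 in the UNx mice of PTS1, at 500 and 474 and at 625 and 345 in PTS2, and at 242 and 279 and at 306 and 269 in PTS3. The groups overlapped in each class. Over the 41 tested members the median log2 fold change was 0.07, -0.01 and 0.12 in PTS1, PTS2 and PTS3, against -0.02, -0.02 and -0.01 over all genes.

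Pex11a, Cpt2, Vnn1 and Hadh, which rose in bulk at 24 h, were not called in the nuclei. Pex11a was at 32.7 and 36.8 and at 42.1 and 45.3 in PTS2, with no overlap (0.33, with the block adjusted p = 0.403). Vnn1 was at 32.5 and 22.4 and at 42.9 and 27.8 there (0.37, with the block adjusted p = 0.386), and Cpt2 at 35.8 and 32.1 and at 32.5 and 55.1. Pdk4, higher in bulk, was at 33.2 and 8.26 in the sham mice of PTS3 and at 5.4 and 6.31 after UNx (-1.82, with the block adjusted p = 0.0748).

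In the 20 other classes 619 pairs of a member and a class were tested. In edgeR without a block, and in DESeq2, 0 were called, and the unadjusted p was below 0.05 for 0 and 3. With the block 9 were called, all higher, while 0.315% of 175679 pairs over all genes were called. They were Cd36 in 8 classes (CNT, CTAL1, DCT, DTL3-ATL, EC1, ICA, ICB and MPC) and Cyp4b1 in ICB. In EC1, an endothelial class, Cd36 was at 190 and 110.5 in the sham mice and at 239 and 336 after UNx (0.91 with the block, SE 0.193, adjusted p = 0.00436). In the tubule class DCT it was at 6.95 and 54.9 and at 16.7 and 201. In each of these 8 classes UNx mouse 2, the mouse with 55 adipocyte nuclei, was the highest.

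Genes near the list moved in the same fits with the block. G0s2, an inhibitor of triglyceride breakdown and a PPAR target, was higher in PTS1, PTS2 and PTS3 (1.37, 1.72 and 1.86, adjusted p = 0.00656, 0.000454 and 0.000667), at 27.6 and 26.6 in the sham mice of PTS3 and 126 and 73.5 after UNx. Nudt19, a peroxisomal CoA hydrolase, was higher in PTS1 and PTS2 (0.92 and 0.69), Bdh1 of ketone metabolism in PTS2 (0.84) and Gpd1 in PTS3 (0.72). Of the 31 tested further oxidation genes 1, 1 and 0 were called in the 3 classes. Of the 8 proximal tubule markers 3, 2 and 2 were called, Slc22a6 and Slc13a3 higher in each class and Cubn lower in PTS1. The S3 segment marker Slc22a7 was higher in PTS1 (1.38, adjusted p = 0.0282) and PTS2 (0.96, adjusted p = 0.0469), and it was not called in PTS3 (-0.08, adjusted p = 0.954). The part of these markers in the members' values was not tested.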

How the data were processed

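The values deposited by the authors were estimated counts, per gene and library in bulk and per gene and nucleus (UMI) in the other assay. The submitters' processing notes name Salmon 1.5.0 and GRCm39 for bulk, and alevin, Seurat and mm10 for nuclei, without saying what each was used for. The annotation was not given in the sources used here. Of the bulk values 32.39% were not whole (tolerance 0.001), and 13.83% of nucleus values above 0. Estimated counts were rounded. In bulk 127 of 28467 genes had no name. Genes were tested in R 4.3.3 with edgeR 4.0.16 (TMM scaling, filterByExpr, quasi-likelihood test, Benjamini-Hochberg adjusted p under 0.05), each time separately, and differences between times in 1 fit of 36 libraries. DESeq2 1.42.0 was an alternative, as were other filters, the profile score, the replicate block and left-out samples. Every p carried by a gene comes from edgeR unless DESeq2 is named. Fold changes and their SE are on the log2 scale. Nucleus counts were summed per mouse and deposited class, for classes with at least 10 nuclei in every mouse. No doublet caller was run here. The fits were also run on simulated counts that held no batch or profile difference. That run does not bear on calls with the replicate block or on the profile.

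The members and lists were chosen with earlier results of these data known. Values by library are given for members called with a log2 fold change of at least 0.5 and for the member of each role with the lowest p, and in nuclei for called members and the 2 with the lowest p in each direction. Members named beyond that were chosen after their values were seen. The bulk labels give each library its own mouse and tie no replicate number to a shared day, and same-numbered libraries did not deviate together (r from -0.295 to 0.141). In nuclei the labels tie each number to a batch. The lowest ratio of chi-square to genes over 90 replicate pairs was 5.041, so no library was counted as a repeat. CPM are not corrected for gene length. Some results on genes outside the list are not reported here.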

Additional observations from a re-analysis of the deposited data

Results flagged for a closer look

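Of 66 groups of 6 libraries examined for the named members, 8 (12.1%) held 1 library far from the other 5, and chance alone marks about 1 in 20 groups. At 24 h after UNx, Slc22a5 was at 134 CPM in replicate 6 and at 148 to 156 in the others. In replicate 4 of the same group Pdk4 was at 57.8 CPM against 12.9 to 22.5, and Vnn1 at 154 against 123 to 131. At 48 h after UNx, replicate 6 held Slc22a5 at 262 CPM against 150 to 183 and Acot4 at 98.7 against 63.3 to 73. Among the 48 h shams, Fabp3 was at 45.3 CPM in replicate 1 against 61.6 to 67.2. At 72 h, Pdk4 was at 135 CPM in sham replicate 3 against 22 to 55.8, and Hadh at 409 CPM in UNx replicate 6 against 471 to 498.

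The effect of UNx differed between times by a test of the difference itself. This was so for 13 of 42 members between 24 h and 48 h, for 2 between 48 h and 72 h and for 3 between 24 h and 72 h, beside 37%, 14.6% and 4.15% of all genes. In the comparisons with 48 h the members' share was below that of all genes. With the profile score as a covariate the effect differed for 0 members in each comparison.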

How the results depend on the processing

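After adding the profile score as a covariate, 0 members and 83 genes were called at 24 h (3852 genes without it), 0 members and 0 genes at 48 h (4696), with 2121 genes at an unadjusted p under 0.05, and 97 genes at 72 h (249). The differences between times came to 0 members in each comparison and to 1, 0 and 64 genes (48 h minus 24 h, 72 h minus 48 h, 72 h minus 24 h), from 5587, 2210 and 626. With all 36 libraries and the score 8 members and 1771 genes were called at 24 h, and 0 members and 33 genes at 48 h. With 48 h UNx replicates 1 to 5 left out there were 0 members and 0 genes at 48 h (2232 at an unadjusted p under 0.05), 0 and 235 for 48 h minus 24 h and 0 and 0 for 72 h minus 48 h (1014 genes at an unadjusted p under 0.05, and 1216 with the covariate). Without replicate 6 of that group the last comparison gave 4 and 3766. DESeq2 called 3 members and 673 genes at 72 h, 9 and 952 for 72 h minus 24 h, and 8, 35 and 25 genes in PTS1, PTS2 and PTS3, with 2 members in PTS2 and 1 in PTS3. Without a filter on low counts 72 h minus 24 h gave 364 genes. Slc22a5 at 48 h turned from -0.48 to 0.15, 0.091 and 0.083 under the 3 treatments of the profile above. The score separated sham from UNx at 24 h, and at 48 h for all UNx libraries but replicate 6. Fits of those times with the score can therefore hardly tell UNx from the profile. The cause of these differences was not tested.

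In bulk the replicate block gave 17, 11 and 0 members at the 3 times, 120 genes at 72 h and 5 members for 72 h minus 24 h. In nuclei the replicate block gave 3 members and 243 genes in PTS1, 2 and 433 in PTS2, 3 and 366 in PTS3, and 9 and 553 in the other classes. Leaving out 1 library gave 15 to 21 members at 24 h, 6 to 13 at 48 h, and 0 to 3 members and 102 to 677 genes at 72 h. Leaving out 1 mouse gave 0 to 2 members and 0 to 77 genes in the other classes. The 2 mice a group limit the precision in nuclei.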
